A study of Mus musculus with 12 samples.

Results

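Iron handling was examined through 8 genes: the ferritin subunits Ftl1 and Fth1, the ferritin cargo receptor Ncoa4, the importers Tfrc and Slc11a2, the exporter Slc40a1, and the iron regulatory proteins encoded by Aco1 and Ireb2. They were taken by gene symbol from the count tables of a RiboTag experiment on cultured adult mouse dorsal root ganglion (DRG) neurons, and all 8 were listed among the 14177 genes of the series. The genes were chosen by name with their measured levels in pull-down against input in view, so that comparison, its difference between genotypes, and the inputs and pull-downs between genotypes are described for them without a test. RiboTag mice carry an Rpl22 allele that gains a hemagglutinin (HA) tag after Cre recombination, which lets an anti-HA antibody pull down ribosomes with their mRNAs. All 12 libraries came from Rpl22HA/HA male mice, labelled as 3 to 6 months old while the methods of the study give a younger range. Of these, 6 were labelled Runx3-Cre+, with Cre under control of Runx3, a transcription factor of proprioceptive neurons. The other 6 were from littermates labelled Runx3-Cre-, which carry the same Rpl22 allele without Cre. Each sample pooled neurons of 5 mice, purified on Percoll, grown for 24 h in medium with serum, and split into a pull-down and an input made from 10% of the lysate before antibody was added. Each of the 4 groups held 3 libraries, and since the labels do not say whether the pools came from separate cultures, p-values measure the spread between these libraries.

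Cells take up transferrin-bound iron through transferrin receptor 1, move it across the endosomal membrane through the divalent metal transporter, store it inside ferritin shells built of light and heavy chains, and release the surplus through ferroportin. When iron is low, iron regulatory proteins bind a hairpin called the iron-responsive element. Binding in a 5′ untranslated region (UTR) holds back translation, as described for ferritin and ferroportin, and binding in a 3′ UTR protects the mRNA from decay, as described for the transferrin receptor. Control through a 5′ element acts on the step that ribosome pull-down reads, and the elements are shown first for that reason.

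Untranslated regions of the 8 genes and of 2 other genes with a described element (Epas1 and Cdc42bpa) were searched on the transcript strand of the GENCODE M21 annotation (GRCm38, the mm10 build) for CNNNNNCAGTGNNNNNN. The 5 bases on either side of the CAGTGN loop had to pair, with G-T pairs allowed. Of the 10 genes, 4 had a match, and 7 sites were found in all. Among annotated genes, 0.151% of 20582 with a 5′ UTR and 0.615% of 20978 with a 3′ UTR held this pattern. The sites are printed 5′ to 3′ in the sense of the transcript, and capitals mark the cytosine that bulges from the stem and the 6 bases of the loop. The ferritin pair has the same 5 bases on either side of the loop in both subunits. The ferroportin site has other bases there, around the loop CAGTGT, which Ftl1 shares and Fth1 (CAGTGC) does not. The transferrin receptor sites show a cluster in 1 mRNA.
Ftl1, 5′ UTR, chr7:45459778-45459807, minus strand: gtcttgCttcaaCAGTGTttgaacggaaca
Fth1, 5′ UTR, chr19:9982732-9982761, plus strand: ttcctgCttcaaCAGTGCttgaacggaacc
Slc40a1, 5′ UTR, chr1:45925464-45925493, minus strand: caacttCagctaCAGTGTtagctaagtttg
Tfrc, 3′ UTR, chr16:32631219-32631248, plus strand: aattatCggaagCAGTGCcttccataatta
Tfrc, 3′ UTR, chr16:32631598-32631627, plus strand: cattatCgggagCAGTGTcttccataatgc
Tfrc, 3′ UTR, chr16:32631663-32631692, plus strand: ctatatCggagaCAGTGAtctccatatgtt
Tfrc, 3′ UTR, chr16:32631710-32631739, plus strand: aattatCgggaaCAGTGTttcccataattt

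No match was found in Slc11a2, Aco1, Ireb2, Ncoa4, Epas1 or Cdc42bpa, which says only that these letters, with this pairing, were not in the annotated UTRs. A match is a pattern in the sequence, and binding was not measured.

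The libraries held 8886308 to 18633365 counted fragments. Pull-downs labelled Cre+ correlated with each other at 0.685 to 0.831 (Pearson r of log2 counts across genes), against 0.913 to 0.975 within each of the other groups, so their values carry more spread. Runx3, the driver gene, stood at normalized counts of 23.3, 2.19 and 11.6 in the Cre+ pull-downs and of 20.1, 34.8 and 49.9 in the Cre- pull-downs, against 1.86 to 5.73 in the inputs. It was called enriched in the libraries labelled Cre- (log2 fold change 3.52, SE 0.43, adjusted p = 0.000466) and not in those labelled Cre+ (1.55, SE 0.86, adjusted p = 0.302). This goes against the labels, since only Cre+ cells should carry tagged ribosomes, so Cre+ and Cre- below name the labels as deposited, and every direction between genotypes refers to them. Of 8 proprioceptor markers, Runx3 among them, 1 of 7 tested was called higher in the pull-down under the Cre+ label (median log2 fold change 1.55) and 6 of 8 under the Cre- label (median 2.68). Pan-neuronal markers were listed in full (12 of 12). Their summed level was 23255 to 30882 normalized counts in the Cre+ inputs and 23622 to 26666 in the Cre+ pull-downs, where 3 were called lower, and 25538 to 30400 in the Cre- inputs and 49123 to 56323 in the Cre- pull-downs, where 3 were called higher. Their part in the results was not tested. No erythroid marker of 9 was listed. Of 12 macrophage markers, 2 were listed in the Cre+ table and 10 in the Cre- table, where 1 of 5 tested was called higher. Levels below are normalized counts, meaning counts per 1000000 after scaling all 12 libraries together by the trimmed mean of M-values (TMM). In bulk samples such as these, fewer cells of a type and less RNA per cell cannot be told apart.

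Ferritin mRNAs were lower in the pull-down than in the input under both labels. Ftl1 encodes the light chain, which aids mineralization of the iron core (chr7:45457944-45459886, minus strand). It stood at 281, 163 and 164 normalized counts in the inputs labelled Cre+ and at 59.9, 96.6 and 100.3 in the pull-downs. In the Cre- libraries, the inputs held 186, 159 and 187 and the pull-downs 40.1, 38.4 and 45.5. All 3 pull-downs lay below all 3 inputs in either case. The log2 fold change was -1.25 (SE 0.36) under the Cre+ label, a 2.39-fold lower level, and -2.08 (SE 0.17) under the Cre- label, a 4.22-fold lower level.

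Fth1 encodes the heavy chain, whose ferroxidase site oxidizes ferrous iron for storage (chr19:9980600-9985111, plus strand). In the inputs labelled Cre+ it stood at 1336, 624 and 559 normalized counts, and in the matching pull-downs at 360.0, 266 and 401. The inputs labelled Cre- held 680.2, 561 and 549.6, and the pull-downs 208, 246 and 185. Again no pull-down reached the lowest input. The log2 fold changes were -1.30 (SE 0.37) under the Cre+ label and -1.46 (SE 0.16) under the Cre- label, or 2.46-fold and 2.75-fold lower. One input labelled Cre+, replicate 1, held the highest level of both subunits, and without it the Fth1 value was -0.79 and the Ftl1 value -0.94. The summed level of satellite glia and Schwann cell markers also lay lower in the pull-downs than in the inputs. Of 12 looked for, 7 were listed in the Cre+ table, with a summed level of 3006 to 4165 normalized counts in the inputs and 1901 to 2850 in the pull-downs, and 0 of 7 tested were called. Under the Cre- label 11 were listed, and 3 of 9 tested were called lower. There the same 7 markers summed to 3207 to 4593 in the inputs and 1594 to 1968 in the pull-downs. The part of glial RNA in the ferritin values was not tested.

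The subunits followed each other across the 12 libraries (Pearson r = 0.927 of log2 normalized counts), a description over libraries that share the contrast between fractions. Per kilobase of transcript, the ratio of light to heavy chain was 0.245 ± 0.040 (SD, n = 3) in the Cre+ inputs and 0.249 ± 0.095 in the Cre+ pull-downs. It was 0.287 ± 0.035 in the Cre- inputs and 0.190 ± 0.043 in the Cre- pull-downs. In the Cre- libraries the 3 pull-down ratios (0.185, 0.150 and 0.235) lay below the 3 input ratios (0.262, 0.272 and 0.327), while in the Cre+ libraries the ratios of both fractions overlapped. Both counts depend on how reads were assigned: 34.6% of the Ftl1 exon bases overlap other annotated genes, and Ftl1 has 7 copies elsewhere in the genome annotation at 90% identity or more, up to 99.6%. Fth1 has 1 such copy. None of these copies was listed in the tables, and the study used uniquely mapped reads only, so reads that fit a copy equally well were not counted.

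**Figure D1:**
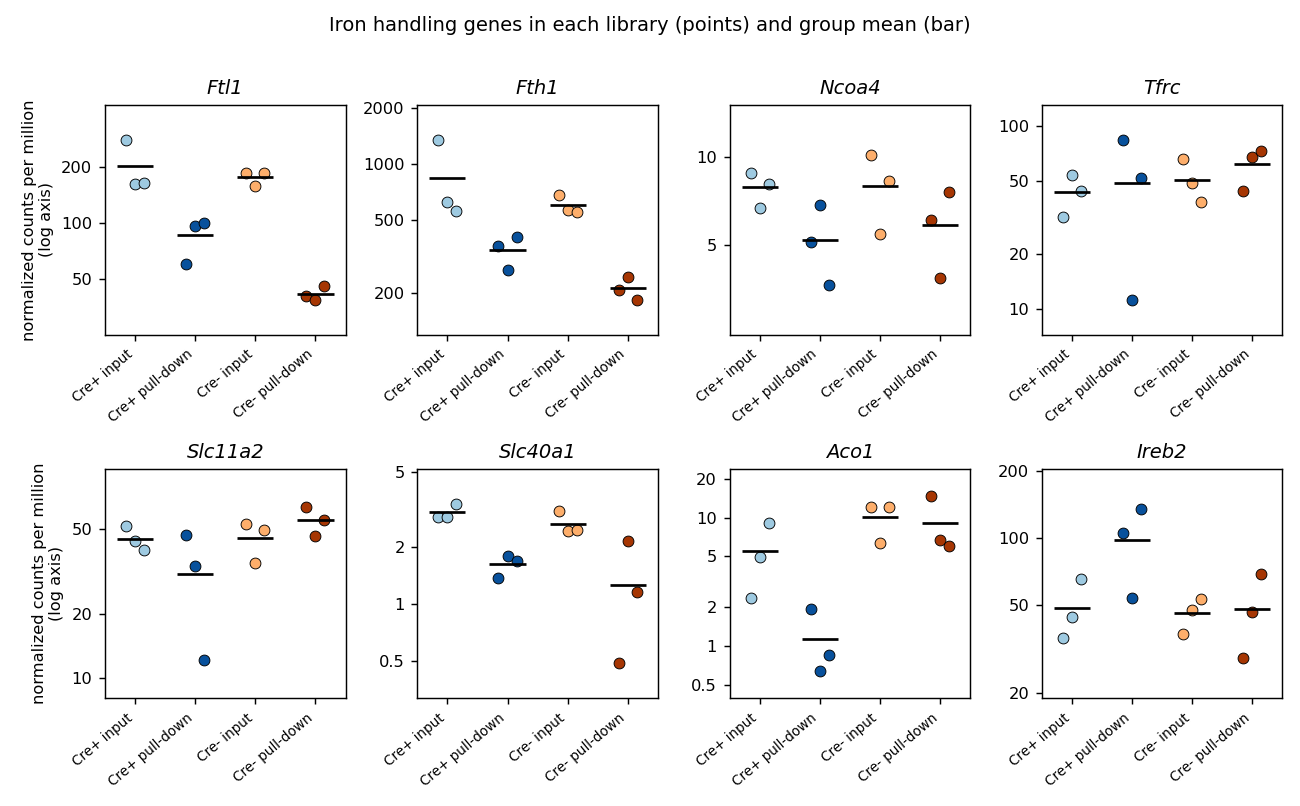
Normalized counts per 1000000 (log axis) of the 8 iron handling genes in each of the 12 libraries, by group; points are libraries and bars are means of 3. Ftl1 and Fth1 pull-downs lie below the inputs under both labels, Aco1 is low in the 3 pull-downs labelled Cre+ (0.644 to 1.93), and Tfrc and Slc11a2 spread widely in the pull-downs labelled Cre+.

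Ncoa4 encodes the receptor that carries ferritin to the lysosome for iron release (chr14:32159879-32179855). It was a low message, at 8.79, 6.67 and 8.08 normalized counts in the inputs labelled Cre+ and 5.11, 6.83 and 3.63 in the pull-downs. In the Cre- libraries the inputs held 10.2, 5.42 and 8.24 and the pull-downs 6.06, 3.86 and 7.58. The fractions overlapped under both labels, with log2 fold changes of -0.60 (SE 0.60) and -0.42 (SE 0.42). Leaving out 1 library moved them between -0.82 and -0.37 and between -0.64 and -0.19. These values rest on 30 to 127 counts per library, and 1 near-identical copy (99.9%) exists in the annotation.

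The importers did not share the ferritin pattern. Tfrc encodes transferrin receptor 1, the main entry for transferrin-bound iron (chr16:32608896-32632794, plus strand). It stood at 32.0, 54.3 and 44.4 normalized counts in the inputs labelled Cre+ and at 84.0, 11.2 and 51.7 in the pull-downs, the widest spread of any group for this gene. Its Cre- values were 65.9, 48.6 and 38.4 in the inputs and 44.2, 67.7 and 73.2 in the pull-downs. Inputs and pull-downs overlapped under both labels. The log2 fold changes were 0.18 (SE 0.67) and 0.30 (SE 0.26). Leaving out single libraries moved the Cre+ value between -0.45 and 0.67 and the Cre- value between 0.13 and 0.53.

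Slc11a2 encodes the divalent metal transporter DMT1, which moves ferrous iron out of endosomes (chr15:100387898-100424209). The inputs labelled Cre+ held 51.7, 44.3 and 39.9 normalized counts, and the pull-downs 47.1, 33.5 and 12.2. The inputs labelled Cre- held 53.0, 34.8 and 49.5, and the pull-downs 63.4, 46.7 and 55.5. Fractions overlapped in both cases, with log2 fold changes of -0.55 (SE 0.58) and 0.30 (SE 0.22). Leaving out Cre+ pull-down replicate 1 or 3 moved the Cre+ value to -0.97 or -0.15. The Cre- value ran from 0.14 to 0.41 with 1 library left out.

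Slc40a1 encodes ferroportin, the only known cellular iron exporter (chr1:45908070-45926532). Its deposited mean FPKM (fragments per kilobase per 1000000 fragments) did not exceed 1 in either table, so it took part only in fits without that filter. It stood at 2.90, 2.90 and 3.37 normalized counts in the inputs labelled Cre+ and at 1.36, 1.80 and 1.69 in the pull-downs. In the libraries labelled Cre-, the inputs held 3.10, 2.43 and 2.47 and the pull-downs 0.487, 2.16 and 1.15. Pull-downs lay below inputs under both labels, on 9 to 53 counts per library. The log2 fold changes without the filter were -0.93 (SE 0.59) and -1.05 (SE 0.75).

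The iron regulatory proteins differed from each other in the libraries labelled Cre+, Aco1 lying below its inputs and Ireb2 toward or above them. Aco1 encodes iron regulatory protein 1, which doubles as the cytosolic aconitase when it holds an iron-sulfur cluster (chr4:40143265-40199009). It stood at 2.36, 4.92 and 9.10 normalized counts in the inputs labelled Cre+ and at 1.93, 0.644 and 0.846 in the pull-downs, the latter on 17, 5 and 7 counts. The inputs labelled Cre- held 12.0, 6.39 and 12.1, and the pull-downs 14.6, 6.73 and 5.99. Pull-downs lay below inputs under the Cre+ label and overlapped with them under the Cre- label. The log2 fold change was -2.25 (SE 0.78) under the Cre+ label, from the fit without the FPKM filter, and -0.13 (SE 0.43) under the Cre- label. Leaving out 1 library moved the Cre- value between -0.63 and 0.10.

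Ireb2 encodes iron regulatory protein 2, which is controlled by its own degradation rather than by a cluster (chr9:54862658-54912534). Its level was 35.5, 44.3 and 65.3 normalized counts in the inputs labelled Cre+ and 106, 53.8 and 136 in the pull-downs. The Cre- inputs held 37.2, 47.4 and 53.0 and the Cre- pull-downs 28.7, 46.5 and 68.9. Groups overlapped under both labels. The log2 fold change was 1.02 (SE 0.46) under the Cre+ label and 0.09 (SE 0.30) under the Cre- label. Leaving out 1 library moved these values between 0.75 and 1.34 and between -0.24 and 0.37.

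Counted over the 8 genes, 4 had every pull-down below every input under the Cre+ label (Ftl1, Fth1, Slc40a1 and Aco1), and 3 did under the Cre- label (Ftl1, Fth1 and Slc40a1). None had every pull-down above every input. Over all genes tested, 17.6% and 19.5% had every pull-down below every input under the Cre+ and Cre- labels. For 15.7% and 17.2%, every pull-down lay above every input. These shares cover genes that passed the FPKM filter, which Slc40a1, and Aco1 under the Cre+ label, did not. Of the iron handling genes that passed it, only Ftl1 and Fth1 had every pull-down below every input. Because this comparison entered the choice of the genes, the counts are descriptive. The FPKM filter was passed by 6 of the 8 genes in the Cre+ table and 7 in the Cre- table. Their median log2 fold change was -0.58 against 0.08 over all genes under the Cre+ label, and -0.13 against -0.04 under the Cre- label. The filter keeps genes through their higher fraction too. With all 8 genes in an unfiltered fit the medians were -0.77 and -0.28. Both ferritin values stayed below 0 in every alternative run, from -1.68 to -0.94 (Ftl1) and -1.75 to -0.79 (Fth1) under the Cre+ label, and from -2.31 to -2.03 and -1.70 to -1.35 under the Cre- label.

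**Figure D2:**
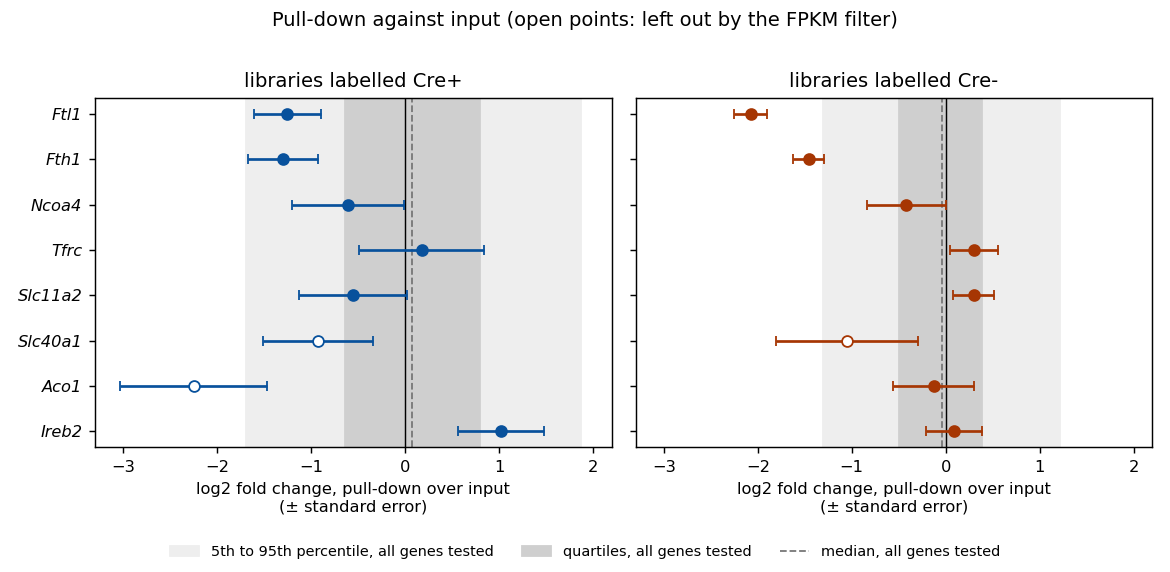
Log2 fold change of pull-down over input (± SE, 3 against 3 libraries) for each iron handling gene, under the Cre+ label on the left and the Cre- label on the right, over the spread of all genes tested in grey. Ftl1 (-1.25 and -2.08) and Fth1 (-1.30 and -1.46) lie left of the middle quartiles of all genes in both panels; open points are genes left out by the FPKM filter.

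The difference in enrichment between labels, taken from all 12 libraries in 1 fit, was 0.86 (SE 0.39) for Ftl1 and 0.19 (SE 0.42) for Fth1 on the log2 scale, Cre+ minus Cre-. For Aco1 it was -2.09 (SE 0.90) and for Ireb2 0.96 (SE 0.57). Slc11a2 differed by -0.82 (SE 0.59), and Tfrc, Ncoa4 and Slc40a1 by -0.15 to 0.16 with standard errors of 0.68 to 0.80. The Fth1 difference was 0.70 without Cre+ input replicate 1. Leaving out 1 library moved the Tfrc difference between -0.74 and 0.36, that of Ncoa4 between -0.40 and 0.080, that of Slc11a2 between -1.26 and -0.44 and that of Aco1 between -2.70 and -1.50.

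The ferritin transcripts are short, and fold change varied with transcript length across genes. Ftl1 and Fth1 have transcripts of 968 and 929 nucleotides, shorter than all but 3.94% and 3.55% of the genes tested in the Cre+ table and 6.19% and 5.57% in the Cre- table. Across genes, the log2 fold change of pull-down over input rose with transcript length, with Spearman's rho of 0.517 over 8894 genes under the Cre+ label and 0.350 over 11433 genes under the Cre- label. Genes are not independent replicates, and these correlations describe the libraries. The median was -1.20 for the 377 genes under 1 kb in the Cre+ libraries, and 47.7% of them had a lower value than Ftl1 and 45.9% a lower value than Fth1. In the Cre- libraries the median of the 761 genes under 1 kb was -0.55, and 5.12% of them had a lower value than Ftl1 and 11.4% a lower value than Fth1. The ferritin values thus lay near the middle of short transcripts under the Cre+ label and toward the low end under the Cre- label. Ireb2, at 5770 nucleotides, and Tfrc, at 4890, were the longest of the 8. The part of length in these results was not tested.

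**Figure D3:**
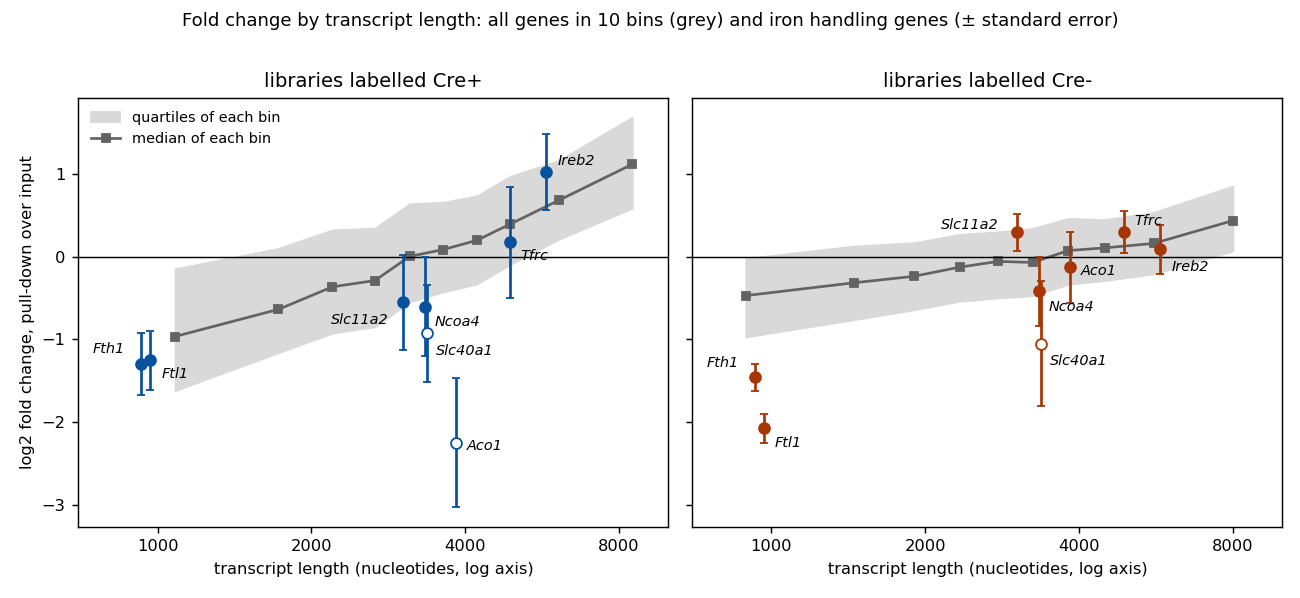
Log2 fold change of pull-down over input against transcript length in nucleotides (log axis) under each label; grey squares and band are medians and quartiles of all genes tested in 10 bins of equal size, and coloured points are the iron handling genes (± SE, open where the FPKM filter left them out). Under the Cre+ label the bins rise from a median of -0.97 to 1.12 and the ferritin genes lie beside the shortest bin; under the Cre- label they rise from -0.47 to 0.44 and the ferritin genes lie below the shortest bin.

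Ordered by level per kilobase, ferritin stood far above the rest. In the Cre- inputs, Fth1 had 643 ± 77.8 normalized counts per kilobase (SD, n = 3) and Ftl1 183 ± 16.4. Slc11a2 followed at 15.1 ± 3.19, Tfrc at 10.4 ± 2.84 and Ireb2 at 7.95 ± 1.39, whose libraries overlapped from each neighbour to the next. Aco1 at 2.65 ± 0.854 and Ncoa4 at 2.37 ± 0.712 overlapped with each other, and Slc40a1 at 0.791 ± 0.111 was lowest, below every Ncoa4 library. The Cre+ inputs had Fth1, Ftl1, Slc11a2, Tfrc and Ireb2 in that order too, with the libraries of Tfrc and Ireb2 overlapping, and Ncoa4, Aco1 and Slc40a1 overlapping in turn. In the pull-downs Fth1 and Ftl1 remained the highest, at 230 ± 32.9 and 42.7 ± 3.82 under the Cre- label and at 368 ± 74.3 and 88.4 ± 23.1 under the Cre+ label. In the pull-downs labelled Cre+, Ireb2 came next, at 9.33 to 23.5 per kilobase, ahead of Slc11a2 at 10.2 ± 5.81 and Tfrc at 10.0 ± 7.46, though these overlapped. Aco1 was last there, at 0.298 ± 0.181, overlapping with Slc40a1. Annotated length stands for the true transcripts here, so the order is approximate.

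Between the labels, none of the 9006 genes tested was called between the inputs (0% higher and 0% lower, by edgeR's quasi-likelihood test and by DESeq2), and 20 had an unadjusted p under 0.05. In a fit of the 6 inputs alone, added after seeing the data, none was called and 185 had an unadjusted p under 0.05. In the fit of all 12 libraries, the log2 differences of the 7 iron handling genes, Cre+ minus Cre-, ran from -0.89 (Aco1, SE 0.62) to 0.49 (Fth1, SE 0.30). With 1 library left out, that of Aco1 ran from -1.48 to -0.54 and that of Fth1 from -0.013 to 0.71, the lowest without Cre+ input replicate 1. Slc40a1, from the unfiltered fit, differed by 0.20 (SE 0.56). The libraries of both labels overlapped for all 8 genes, while over all genes tested 3.82% had every Cre+ input above and 3.98% every Cre+ input below the Cre- inputs.

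Between the pull-downs, 10.9% of genes were called higher and 7.17% lower under the Cre+ label than under the Cre- label. The 981 higher and 646 lower genes became 637 and 878 with upper-quartile scaling and 556 and 1005 by library size alone, 112 and 129 in the fit of the 6 pull-downs alone, and, with 1 library left out, between 374 and 326 (the third pull-down labelled Cre- removed) and 1409 and 1105 (the second labelled Cre+ removed). The pull-downs had served in choosing the 8 iron handling genes, through their comparison with input, so their values here are given without a test. Ftl1 was higher in all 3 pull-downs labelled Cre+ than in all 3 labelled Cre-, with a log2 difference of 1.05 (SE 0.28), or 2.07-fold. Aco1 was lower in all 3, with a difference of -2.98 (SE 0.69), which ran from -3.59 to -2.47 with 1 library left out. In a fit of the 6 pull-downs alone, added after seeing the data, which estimates the spread without the tighter inputs, the standard errors were 0.37 and 0.75. Over all genes, 13.5% had every Cre+ pull-down above every Cre- pull-down and 15% had every one below.

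Fth1 was also above in all 3 libraries, with a log2 difference of 0.68 (SE 0.30). Ireb2 differed by 1.03 (SE 0.41) and Slc11a2 by -0.84 (SE 0.42). Tfrc differed by -0.33 (SE 0.53), Ncoa4 by -0.17 (SE 0.49), and Slc40a1, in the unfiltered fit, by 0.35 (SE 0.59). With 1 library left out, the difference ran from 0.73 to 1.39 for Ireb2, from -1.27 to -0.45 for Slc11a2, from -0.97 to 0.14 for Tfrc and from -0.41 to 0.064 for Ncoa4. The Ftl1 difference was 0.89 with upper-quartile and 0.83 with library-size scaling.

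**Figure D4:**
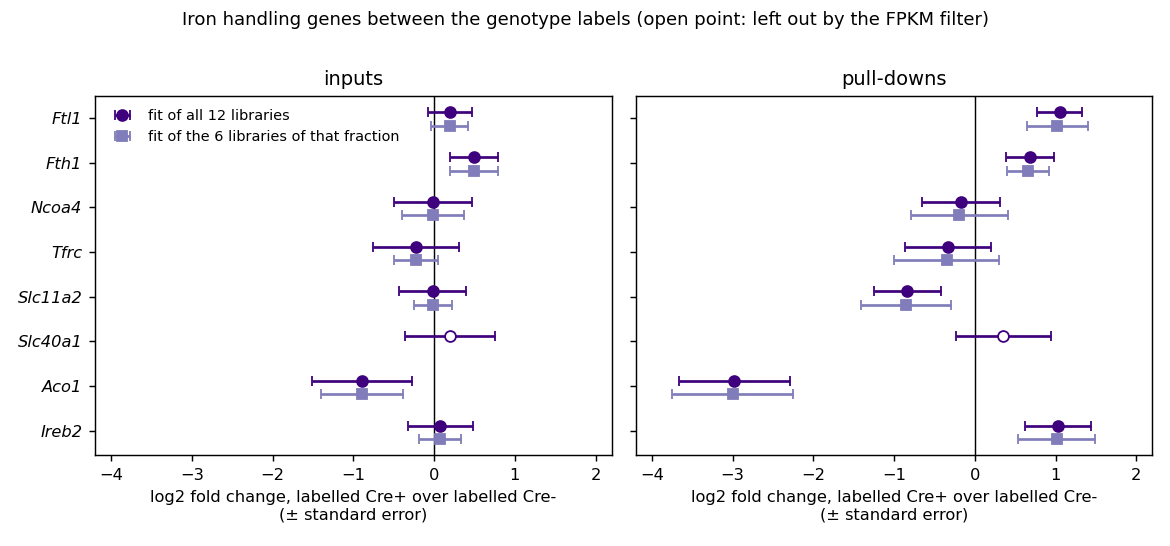
Log2 difference between libraries labelled Cre+ and Cre- (± SE) in the inputs and in the pull-downs for each iron handling gene, from all 12 libraries (circles) and from the 6 libraries of that fraction (squares). Inputs lie near 0 for most genes, whereas in the pull-downs Ftl1 is at 1.05 and Aco1 at -2.98, with wider intervals from the 6 pull-downs alone.

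The genes whose log2 levels over the 12 libraries were most like those of Ftl1 were Tmsb10 (Pearson r = 0.985), Vamp2 (0.975), Rab15 (0.969), Cd24a (0.963) and Ccni (0.960), among 9006 genes. Nearest to Fth1 were Rpl22 (0.953), Ypel3 (0.948), Gm5148 (0.943), Tmsb10 (0.942) and Mapk3 (0.941). Tmsb10, a small actin-binding protein, was near both subunits and had log2 fold changes of -1.63 and -2.04 under the Cre+ and Cre- labels. Rpl22 is the ribosomal protein that carries the tag, and its own mRNA was lower in the pull-down, by -0.88 (SE 0.48, adjusted p = 0.293) under the Cre+ label and -1.38 (SE 0.24, adjusted p = 0.00311) under the Cre- label. All of these likenesses rest on the same 12 libraries and on the contrast between fractions.

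Beyond these 8 genes, 84 other genes of iron uptake, storage, haem and iron-sulfur cluster metabolism, iron-responsive regulation and peroxide defence were looked for, and 75 were listed. Under the Cre+ label, 46 passed the filter, of which 4 rose in the pull-down and none fell by the call rule of the study, a false discovery rate below 0.1 with a 2-fold change, while 11 had an unadjusted p under 0.05. Over all 8947 genes tested, 5.17% were called higher and 2.49% lower, and 2121 had an unadjusted p under 0.05. DESeq2 called 6 of the 46 higher and 4 lower, and edgeR's exact test 6 higher and 3 lower. All 4 genes that rose (Herc2, Cdc42bpa, Epas1 and Gclc) lost the call when any 1 Cre+ input was left out, since no gene of the 8947 was then called and 1154 to 1419 had an unadjusted p under 0.05. In the Cre- table, 65 were tested, of which 2 rose and 6 fell, against 6.06% and 5.93% of all genes. With all 12 libraries in 1 fit, of the 6 that fell Fam96a was called, Epas1, Cpox, Uros and Lyrm4 were not (adjusted p = 0.112, 0.332, 0.427 and 0.524), and Steap1, listed in the Cre- table alone, was not tested. Median log2 fold changes were -0.49 and -0.09, against 0.08 and -0.04 over all genes. The medians over all genes are not matched for transcript length, with which fold change rose across genes. The part of length in the values and calls of these genes, here and by list below, was not tested.

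Among regulators and storage factors, Herc2, a ubiquitin ligase reported to turn over NCOA4, was the only called gene of its list under both labels, among 8 tested in the Cre+ table and 10 in the Cre- table. Its level was 117, 215 and 237 normalized counts in the inputs labelled Cre+ and 667, 529 and 432 in the pull-downs. In the Cre- libraries it was 109.9, 221 and 212 against 394, 369 and 336. All pull-downs exceeded all inputs, with log2 fold changes of 1.51 (SE 0.34, adjusted p = 0.058) and 1.04 (SE 0.24, adjusted p = 0.013). Without Cre- input replicate 1 the latter was 0.78, short of 2-fold. Steap1, a metalloreductase family member listed only in the Cre- table, fell there from 8.22, 4.78 and 5.09 to between 0.866 and 1.37 normalized counts (log2 fold change -2.32, SE 0.54, adjusted p = 0.014). It was the only called gene among 8 tested for uptake and transport, and none of 6 was called under the Cre+ label.

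Of the haem genes, none of 10 was called under the Cre+ label and 2 of 13 fell under the Cre- label. Cpox, which makes protoporphyrinogen, fell by 1.38 on the log2 scale (SE 0.34, adjusted p = 0.0172), from 43.9, 41.9 and 49.9 normalized counts to 26.0, 15.9 and 9.09. Uros, an earlier enzyme of the same path, fell by 1.06 (SE 0.29, adjusted p = 0.029), from 18.3, 21.0 and 15.3 to 7.41, 9.54 and 8.73. In the libraries labelled Cre+, Cpox gave -1.16 (SE 0.83, adjusted p = 0.416) and Uros 0.79 (SE 0.80, adjusted p = 0.572). The Uros fall was short of 2-fold without Cre- input replicate 2 (-0.94) or Cre- pull-down replicate 1 (-0.95), and its difference between labels (1.89, adjusted p = 0.251) passed only without Cre+ pull-down replicate 1 (2.40, adjusted p = 0.0144).

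Of the iron-sulfur cluster genes, 2 of 22 fell and 1 rose under the Cre- label. Fam96a, also known as Ciao2a, an assembly factor that serves iron regulatory protein 1, fell from 47.2, 17.6 and 29.3 to 9.69, 8.43 and 8.08 normalized counts (-1.81, SE 0.35, adjusted p = 0.00597). Lyrm4, a partner of the cysteine desulfurase Nfs1, fell from 27.6, 16.8 and 27.9 to 7.36, 8.56 and 12.2 (-1.34, SE 0.32, adjusted p = 0.0154). Narfl, also known as Ciao3, of the cytosolic assembly machinery, rose from 8.03, 5.18 and 4.79 to 14.0, 13.7 and 13.7 (1.23, SE 0.34, adjusted p = 0.0292), a call lost without Cre- input replicate 3 (adjusted p = 0.106). Under the Cre+ label 0 of 12 were called and 2 had an unadjusted p under 0.05. There 11 of 12 values were below 0, with a median of -0.81 against 0.08 over all genes, and Fam96a stood at -1.88 (SE 0.64, adjusted p = 0.125), a value that passed by DESeq2, by edgeR's exact test, with library-size scaling and with all 12 libraries in 1 fit. Lyrm4 stood at -2.08 (SE 1.16, adjusted p = 0.304), on 5, 12 and 163 counts in the pull-downs, and at -4.84 (adjusted p = 0.0848) without Cre+ pull-down replicate 3. The difference between labels passed the test for none of the 12, though without Cre+ pull-down replicate 3 it did for Lyrm4 (-3.49, adjusted p = 0.0412). The part of transcript length in the values of this list was not tested.

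The list of further mRNAs with a described iron-responsive element held 2 genes here, both called higher under the Cre+ label, while 1 of 2 was called lower under the Cre- label. Cdc42bpa, a kinase acting on the actin cytoskeleton, rose under the Cre+ label from 227, 358 and 399 to 957, 812 and 699.9 (1.32, SE 0.30, adjusted p = 0.0586). With the Cre- label it was at 0.77 (SE 0.15, adjusted p = 0.00667), short of 2-fold.

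Epas1, which encodes the hypoxia-inducible factor HIF-2α, went in opposite directions under the labels. It stood at 69.9, 66.5 and 59.5 normalized counts in the inputs labelled Cre+ and at 328, 106 and 260.0 in the pull-downs (log2 fold change 1.83, SE 0.43, adjusted p = 0.0636). Under the Cre- label it stood at 98.2, 72.4 and 75.6 in the inputs and at 53.1, 28.0 and 27.5 in the pull-downs (-1.15, SE 0.27, adjusted p = 0.0154). The difference between labels was 3.00 (SE 0.54, adjusted p = 0.0186), while 2.23% of all genes were called higher and 1.99% lower in that test. Between the pull-downs alone it was 2.68 higher under the Cre+ label (SE 0.40, adjusted p = 0.00201; adjusted p = 0.0579 in the fit of the 6 pull-downs). The fall under the Cre- label was short of 2-fold without Cre- pull-down replicate 3 (-0.98) and, by a small margin, without replicate 2. Of 8 endothelial markers, 7 were listed. Under the Cre+ label their summed level was 114 to 138 normalized counts in the inputs and 173 to 1144 in the pull-downs. Tek, Flt1 and Vwf were called higher there, and the median log2 fold change was 2.48. Under the Cre- label the sum was 101 to 154 in the inputs and 28.3 to 238 in the pull-downs. There 0 of 6 tested were called, and the median was 0.066. Fibroblast markers, 6 of 8 listed in the Cre+ table and 8 in the Cre- table, summed to 262 to 353 in the Cre+ inputs and 190 to 667 in the Cre+ pull-downs, where 1 of 6 was called higher (median log2 fold change 0.33). Under the Cre- label the same 6 markers summed to 277 to 322 in the inputs and 103 to 299 in the pull-downs. Of 7 tested there, 1 was called lower (median log2 fold change -0.81). The part of endothelial and fibroblast RNA in the Epas1 values was not tested.

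In the defence against lipid peroxidation, Gclc, the rate-limiting enzyme of glutathione synthesis, was the only called gene of 8 under the Cre+ label. It rose from 43.5, 52.9 and 42.5 to 132, 62.6 and 229 normalized counts (1.60, SE 0.48, adjusted p = 0.0991), a call lost in 8 of 13 alternatives, with adjusted p up to 0.346. Under the Cre- label 0 of 10 were called, and Gclc was at 0.18 (SE 0.24, adjusted p = 0.647). Between the pull-downs it was higher under the Cre+ label by 1.23 (SE 0.40, adjusted p = 0.0535), a call lost in 5 of 18 alternatives, among them the fit of 6 libraries (adjusted p = 0.22) and the fit without Cre+ pull-down replicate 3 (0.69, adjusted p = 0.175).

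**Figure D5:**
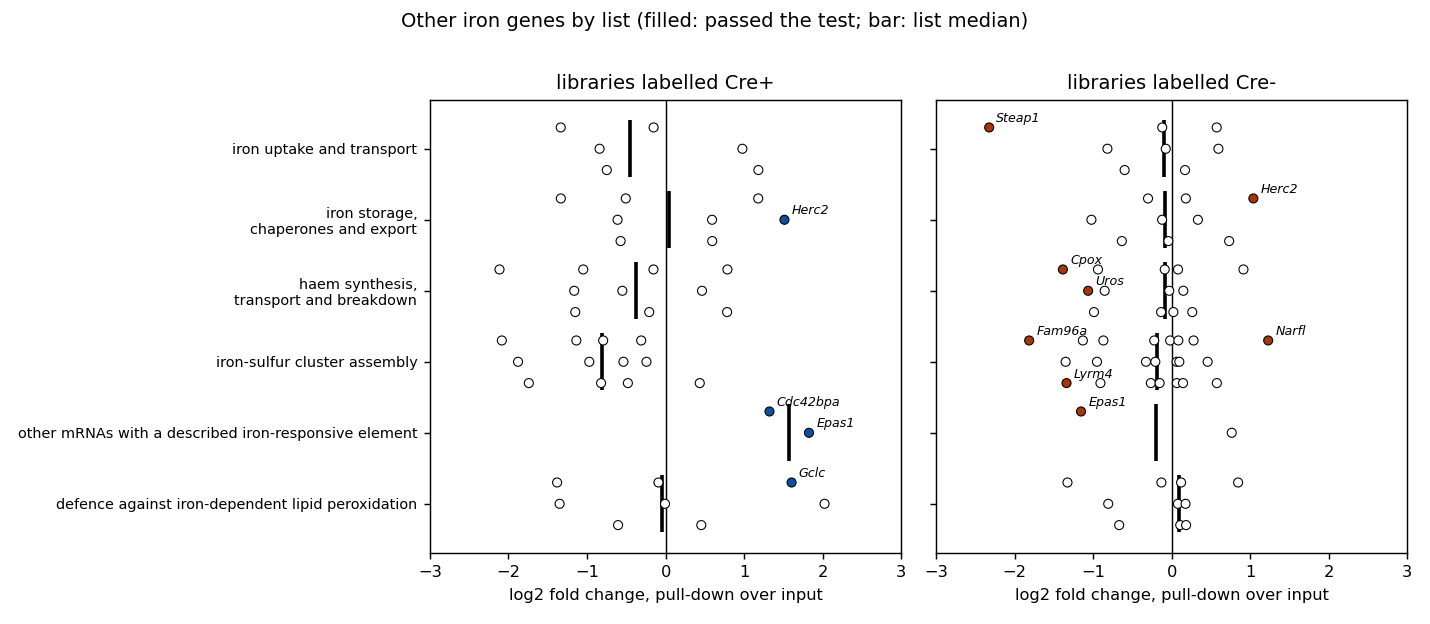
Log2 fold change of pull-down over input for the other iron genes that passed the FPKM filter, in 6 lists, under each label; points are genes, filled where the call rule was met, and bars are list medians. Of 46 genes under the Cre+ label 4 are called higher, and of 65 under the Cre- label 2 are called higher and 6 lower.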

How the data were processed

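Deposited were 2 tables of gene counts, one per genotype label. Per the study's methods, the authors aligned paired reads to mm10 with STAR, counted uniquely mapped fragments per RefSeq gene with HTSeq, and tested with edgeR. The submitters' processing notes also name CASAVA 1.8.2. Libraries came from RNA amplified by NuGEN Ovation kits, and the sources used here do not say that counting used strand, so overlapping antisense genes cannot be told apart. The authors' counts are raw fragments per gene, and the deposited mean FPKM, averaged by the authors over the libraries of a table, served only as a filter. The authors' fold changes, p-values and FDR were not used, nor were 18 columns of normalized counts and ratios. Columns of the Cre+ table could be tied to their group but not to single samples, so their replicate numbers only tell libraries apart.

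Counts were fitted with edgeR 4.0.16 (R 4.3.3): TMM scaling, genes with mean FPKM above 1 (8947 in the Cre+ table, 11526 in the Cre- table, 9006 in both together), the quasi-likelihood test, and Benjamini-Hochberg adjustment over all genes tested. A gene was called at an adjusted p below 0.1 with a 2-fold change. Pull-down against input used the 6 libraries of a genotype, and the other 3 comparisons (difference in enrichment, inputs, pull-downs) all 12. Tests of the 8 genes between inputs and between pull-downs had been planned, but their values are given as a description, since both fractions entered the choice of the genes. The fits were also run on simulated data with the same spread in every group. That setting lacks the wider spread of the pull-downs labelled Cre+, so it does not bear on calls that involve them. Correlations with Ftl1 and Fth1 used log2 normalized counts with a prior count of 2. Copies were found with blastn 2.17.0 (90% identity over 50% of the length). Coordinates and lengths are those of RefSeq and GENCODE M21 on GRCm38.

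The 8 genes, the lists and the tests were chosen with earlier results of these data known. Named beside the 8 were every other iron gene called in any of the 5 comparisons, Runx3 and Rpl22, and the 5 genes nearest to each ferritin subunit; 1 gene of the lists is not reported here. Alternatives were DESeq2 1.42.0, edgeR's exact test, a filter of 10 counts in 3 samples or none, upper-quartile or library-size scaling, all 12 libraries in 1 fit, a replicate block, other thresholds, leaving out each library, and, added later, the 6 libraries of a fraction.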

Additional observations from a re-analysis of the deposited data

Results flagged for a closer look

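Epas1 was singled out because its response differed between the genotype labels in a test of the difference itself. The log2 difference in enrichment, Cre+ minus Cre-, was 3.00 (SE 0.54, adjusted p = 0.0186, edgeR's quasi-likelihood test over 9006 genes), with all 3 pull-downs above all 3 inputs under the Cre+ label and all 3 below under the Cre- label. Over the alternatives run the difference ranged from 2.66 to 3.38, with adjusted p from 2.35e-05 to 0.0757. Endothelial markers were higher in the pull-downs labelled Cre+, as given above, and their part was not tested.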

How the results depend on the processing

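Of 1220 alternative values for single genes, 1113 kept their sign and either their side of the threshold or, where untested, a place within the replicate spread. Another 53 changed sign without being called before or after, among them values for Tfrc, Aco1, Ireb2 and the Fth1 difference. Of the rest, 35 fell short of the threshold, 12 newly passed it and 7 untested values moved by more than the replicate spread. No called value changed sign. For untested values, leaving out a pull-down can hardly move the value by more than the spread of those same pull-downs. Such alternatives were nearly bound to stay within the spread, so their share of the 1113 says little about stability. Scaling by library size alone shifted the median of all genes from 0.08 to -0.36 under the Cre+ label and from -0.04 to -0.27 under the Cre- label, and the Ftl1 and Fth1 values with it (-1.68 and -1.75, then -2.31 and -1.70). Over all genes it turned 463 higher and 223 lower into 195 and 715 under the Cre+ label, and 698 and 684 into 433 and 1249 under the Cre- label. Upper-quartile scaling gave 247 and 271 under the Cre+ label. DESeq2 gave 1103 and 568 there, and the exact test 794 and 485.

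For the other iron genes called higher under the Cre+ label (4), DESeq2, the exact test and all 12 libraries each gave 6. Library size gave 2, an adjusted p below 0.05 gave 0, and leaving out 1 library 0 to 5. For those called lower (0), DESeq2 gave 4, the exact test 3, library size 3, all 12 libraries 6, and leaving out 1 library 0 to 5. Under the Cre- label, the 2 called higher became 0 by library size, 5 without a fold limit, 1 with all 12 libraries and 1 to 2 with 1 library left out, and the 6 called lower became 15 by library size, 13 without a fold limit and 1 with all 12 libraries. For the difference between labels, DESeq2 called 2 higher in place of 1, and leaving out 1 library gave 1 to 2 higher and 0 to 4 lower, in place of 0. Between pull-downs, 2849 of all 9006 genes had an unadjusted p under 0.05 by edgeR's quasi-likelihood test. Of the 46 other iron genes tested, 11 did, and 2 were called higher and 0 lower. DESeq2 gave 4 and 3, library size 1 and 5, the 6 pull-downs alone 1 higher, upper-quartile scaling 4 lower, and leaving out 1 library 1 to 4 higher and 0 to 7 lower. The median of the iron handling genes that passed the filter (6 and 7 of the 8) became -1.02 by library size under the Cre+ label, and with 1 library left out ran from -0.77 to -0.26 there and from -0.43 to 0.045 under the Cre- label. The cause was not tested.

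Replicate numbers could be used in the Cre- table only, where same-numbered input and pull-down deviations correlated at 0.067, 0.028 and 0.124, so the numbers were not taken as pairs. Each input is part of the lysate of a pull-down by design, but the sources used here do not say that equal numbers mark the same lysate. Each library did correlate best with its own number. With a replicate block the Cre- counts were 689 higher and 757 lower in place of 698 and 684, the other iron genes 2 higher and 8 lower, and Ftl1 and Fth1 stood at -2.08 and -1.46. The block changed the call of none of the other iron genes named above. Shallow counts (5 to 17 for Aco1 in the Cre+ pull-downs, 9 to 53 for Slc40a1) limit those genes most.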
